A study of Mus musculus with 12 samples.

Results

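The SLAM family of surface receptors and their adaptor SAP were followed by 8 genes (Slamf1, Slamf6, Slamf7, Cd244a, Cd48, Ly9, Cd84 and Sh2d1a) in RNA of CD8+ T cells sorted from mouse tumours. The genes were chosen by name from a table of 56980 genes, and all 8 were found in it and passed the filter on low counts. The tumours came from Panc02, a mouse pancreatic cancer line, or from Panc02 cells that express Flt3L, the cytokine that drives dendritic cell development. The mice were wild-type C57BL/6J animals in all groups, and the sources used here give neither their age nor the tumours' age. Viable (DAPI-) CD45.2+ CD8+ cells were split by the surface glycolipid asialo-GM1 (asGM1), so 4 groups were compared: asGM1-negative and asGM1-positive cells (the negative and positive gates) from Panc02 tumours, and the same gates from Flt3L Panc02 tumours. Each group held 3 libraries, and nothing in the labels ties replicates to different mice, so p-values measure the spread between these libraries, which may be technical.

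SLAM family receptors are immunoglobulin-like molecules of blood cells. Most of them bind a copy of themselves on a neighbouring cell, whereas 2B4, the product of Cd244a, binds CD48. Tyrosine motifs in the tails of most of these receptors recruit SAP, encoded by Sh2d1a, which brings in the kinase Fyn, and the same motifs can recruit inhibitory phosphatases when SAP is scarce. In CD8+ T cells of tumours and chronic infection, SLAMF6 (Ly108) is known as a surface marker of the stem-like state and 2B4 of effector and exhausted cells.

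The 7 receptor genes lie side by side on chromosome 1 in the order Cd244a, Ly9, Slamf7, Cd48, Slamf1, Cd84 and Slamf6 (RefSeq, GRCm38.p6), with 1 other gene listed there as protein-coding, Tma7-ps, between them. Sh2d1a lies on chromosome X. Promoter sequences from RefSeq matched 6 of the 8 genes. The 250 bases before the start are shown for Slamf6, Slamf1 and Cd84, which were lower in asGM1-positive cells, and for Cd244a, which was higher. They are on GRCm38.p6, a build other than the mm39 of the counts, and read 5′ to 3′ with capitals for any match to the motifs described after them.
Slamf6 (chr1:171917212-171917461, plus strand): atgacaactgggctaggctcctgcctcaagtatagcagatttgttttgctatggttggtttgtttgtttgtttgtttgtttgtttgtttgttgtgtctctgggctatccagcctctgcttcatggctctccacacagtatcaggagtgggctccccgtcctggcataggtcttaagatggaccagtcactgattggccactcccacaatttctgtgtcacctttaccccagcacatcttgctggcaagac
Slamf1 (chr1:171766882-171767131, plus strand): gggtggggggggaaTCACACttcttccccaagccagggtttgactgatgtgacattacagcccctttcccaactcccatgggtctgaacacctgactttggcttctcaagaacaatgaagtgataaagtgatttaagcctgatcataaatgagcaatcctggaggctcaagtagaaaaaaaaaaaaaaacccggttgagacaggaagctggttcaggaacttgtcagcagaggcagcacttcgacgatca
Cd84 (chr1:171839447-171839696, plus strand): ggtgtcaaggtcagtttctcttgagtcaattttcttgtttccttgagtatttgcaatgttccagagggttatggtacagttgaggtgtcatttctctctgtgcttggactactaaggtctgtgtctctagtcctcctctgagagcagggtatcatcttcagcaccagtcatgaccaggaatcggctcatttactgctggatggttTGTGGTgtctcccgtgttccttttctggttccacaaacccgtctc
Cd244a (chr1:171558943-171559192, plus strand): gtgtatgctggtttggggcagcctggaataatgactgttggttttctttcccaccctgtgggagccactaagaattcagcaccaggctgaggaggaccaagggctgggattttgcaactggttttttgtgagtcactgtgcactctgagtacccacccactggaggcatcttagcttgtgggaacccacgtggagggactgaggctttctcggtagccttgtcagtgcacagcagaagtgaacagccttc
These windows were searched on both strands for CTTTGA (TCF/LEF), TCACAC (T-box), TGTGGT (RUNX) and CCGGAAGT (ETS), letters that do not overlap each other in these 4 windows. Of 32851 promoter windows of this length, 13.8%, 12.3%, 14% and 2.88% held them. The Slamf1 window held 1 T-box match, beginning 236 bases before the start, and the Cd84 window 1 RUNX match, beginning 45 bases before it. No match was found in the Slamf6 and Cd244a windows, and the Slamf6 window carried 8 tandem copies of GTTT. A match is a string of letters and not evidence of binding.

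The libraries totalled 98663008 to 102896605 counts each, and 20411 genes entered the test. Levels below are CPM (each library's counts scaled by TMM to the same total), and a gene is called where edgeR's quasi-likelihood test gives a Benjamini-Hochberg adjusted p under 0.05 over all tested genes. The CD8 gene Cd8a stood between 1569 and 2562 CPM and the general T cell gene Cd3e between 614 and 1412 CPM in the 12 libraries. Transcripts of other cell types were detected too: the plasmacytoid dendritic cell gene Siglech stood at 40.4 to 70.1 CPM in negative-gate and 0.0901 to 3.1 CPM in positive-gate libraries of Panc02 tumours. With Flt3L expressed in the tumour, it stood at 253 to 290 CPM and 1.6 to 4.56 CPM. The NK cell receptor gene Ncr1 lay between 0.101 and 1.25 CPM. In bulk RNA, fewer cells of a type and less RNA per cell cannot be told apart.

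**Figure D1:**
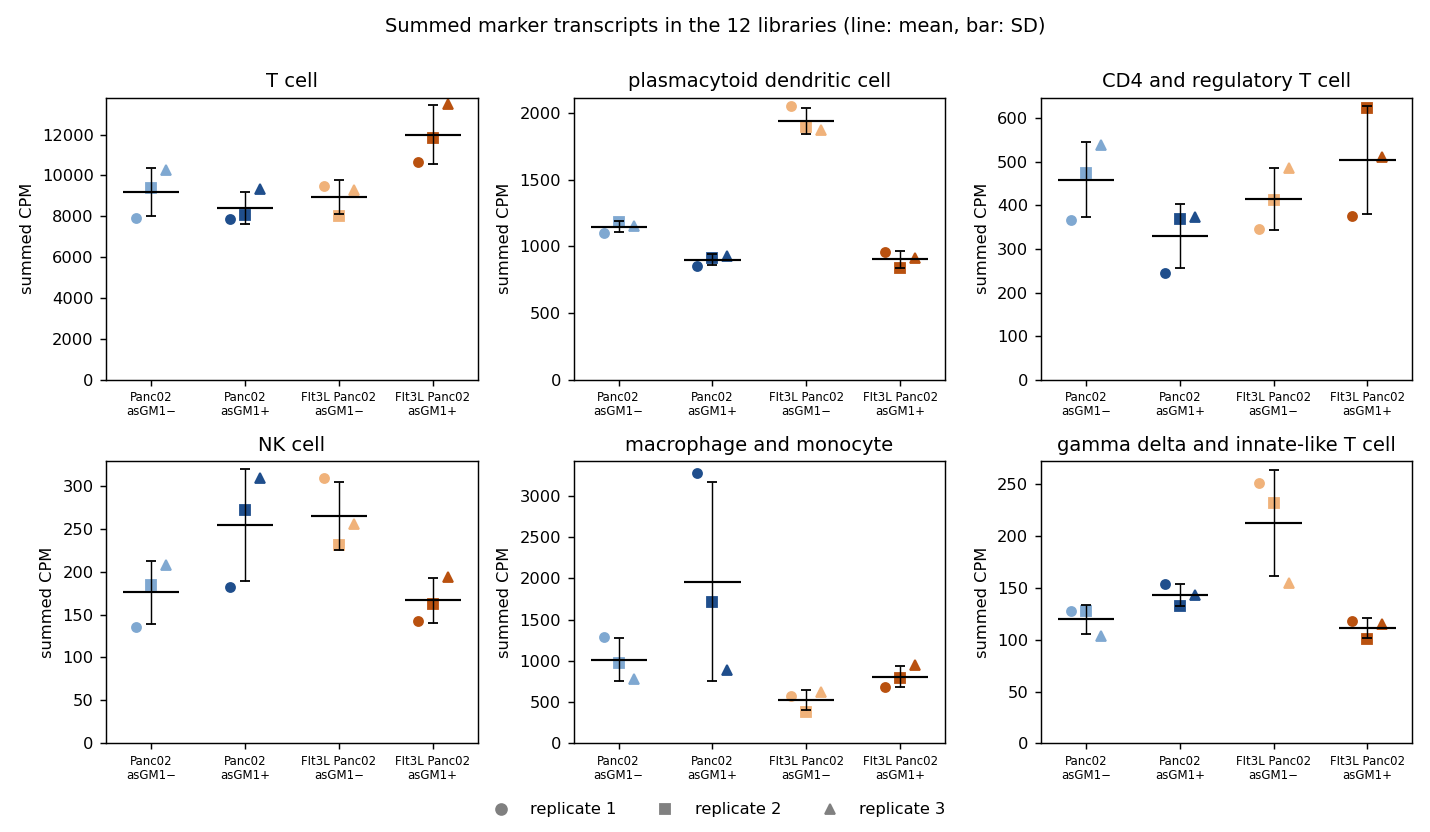
Summed CPM of 6 marker lists in each of the 12 libraries, by group, with the mean as a line and the SD as a bar. Plasmacytoid dendritic cell transcripts were highest in asGM1-negative libraries of Flt3L Panc02 tumours (1873 to 2055 CPM), and T cell transcripts in asGM1-positive libraries of the same tumours (10649 to 13511 CPM).

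Per length of exons (GENCODE M21, all transcripts joined), Cd48 had the highest level of the 8 genes in each group, at 362 ± 52.1 to 487 ± 86.3 CPM per kb (SD, n = 3). CD48 is a lipid-anchored ligand found on nearly all lymphocytes. In asGM1-positive cells of Panc02 tumours the order after it was Slamf7 at 45.6 CPM per kb, Cd244a at 37.3, Ly9 at 16.3, Cd84 at 8.93, Slamf1 at 5.14, Sh2d1a at 4.49 and Slamf6 at 2.39. Of these neighbours, the Slamf7 and Cd244a libraries overlapped, as did those of Slamf1 and Sh2d1a. In asGM1-negative cells of Flt3L Panc02 tumours it was Ly9 at 43.7 CPM per kb, Slamf7 at 39.2, Cd244a at 16.9, Cd84 at 13.3, Slamf6 at 10.8, Slamf1 at 8.21 and Sh2d1a at 6.42, and here the libraries of Ly9 and Slamf7 overlapped. Both orders depend on the exon lengths used, such as 10832 bases for Slamf6 and 5505 for Sh2d1a. In CPM, Slamf6 averaged 25.9 and Sh2d1a 24.7 in asGM1-positive cells of Panc02 tumours, with overlapping libraries.

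Slamf6, the gene of the receptor Ly108, was the member with the widest range, from 24 to 127 CPM over the 12 libraries. In Panc02 tumours it measured 62.9, 59.1 and 76.1 CPM in replicates 1, 2 and 3 of the negative gate and 27.2, 24 and 26.5 CPM in those of the positive gate. The asGM1-positive libraries lay below all asGM1-negative ones, and the log2 fold change of -1.35 ± 0.22 (SE) was called (edgeR adjusted p = 0.0122). Among Flt3L Panc02 libraries it stood at 104, 120.2 and 127 CPM in negative-gate replicates and 32.2, 65.3 and 62.1 CPM in positive-gate ones. The gates were again apart, with replicate 1 of the asGM1-positive cells lowest, and the log2 fold change was -1.14 ± 0.22 (edgeR adjusted p = 0.00954). The order of the groups was asGM1-negative Flt3L Panc02, asGM1-negative Panc02, asGM1-positive Flt3L Panc02 and asGM1-positive Panc02, and the libraries of the middle pair overlapped. In Panc02 tumours the call ended without asGM1-negative replicate 3 (edgeR adjusted p = 0.0545) and without asGM1-positive replicate 2 (0.0763), with log2 fold changes of -1.24 and -1.30.

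Slamf1, the gene of the self-binding receptor CD150, was lower in the positive gate of Panc02 tumours. It stood at 53.1, 49.7 and 61.4 CPM in negative-gate replicates and 31.7, 30.1 and 33.1 CPM in positive-gate ones, with no overlap and a log2 fold change of -0.79 ± 0.11 (SE, edgeR adjusted p = 0.00588). In Flt3L Panc02 tumours the gates overlapped, at 47.2, 48.1 and 56.4 CPM in negative-gate replicates and 47.3, 48.4 and 42.8 CPM in positive-gate ones. There the log2 fold change was -0.13, with a 95% interval from -0.38 to 0.11 (edgeR adjusted p = 0.505). The difference between both gate effects was a log2 fold change of 0.66 ± 0.16 that edgeR did not call (adjusted p = 0.102), and that DESeq2 (0.00538) and limma-voom (0.0421) called. The asGM1-positive Panc02 group was the lowest of the 4, and in the order of the other groups each overlapped its neighbour, while asGM1-negative Panc02 and asGM1-positive Flt3L Panc02 libraries did not overlap. With libraries scaled by the summed level of 9 T cell genes, an alternative chosen after seeing the data, the Panc02 call ended (-0.66, edgeR adjusted p = 0.137) and the Flt3L Panc02 difference was called (-0.54, 0.039).

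Cd84 and Ly9 encode self-binding receptors that use SAP. Cd84 stood at 72, 70.5 and 85.9 CPM in negative-gate replicates and 57.4, 54.1 and 56.5 CPM in positive-gate ones of Panc02 tumours. With Flt3L expressed in the tumour, it stood at 84.4, 78.6 and 86.6 CPM against 60.9, 74.1 and 74.1 CPM. The gates were apart in both tumour types by small amounts, and neither difference was called (edgeR adjusted p = 0.109 and 0.172). Their mean, a log2 fold change of -0.35 ± 0.08 (SE), was called (edgeR adjusted p = 0.0208), a call that ended without asGM1-negative replicate 3 of Panc02 tumours (0.0541), asGM1-positive replicate 2 of Panc02 tumours (0.0649) or asGM1-negative replicate 3 of Flt3L Panc02 tumours (0.0561). With libraries scaled by the summed T cell genes the Flt3L Panc02 difference of Cd84 was called (-0.68, edgeR adjusted p = 0.00553).

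Ly9 stood at 103, 68.3 and 87.6 CPM in negative-gate replicates and 54.2, 43.7 and 64.3 CPM in positive-gate ones of Panc02 tumours. Among Flt3L Panc02 libraries it stood at 103, 165 and 166 CPM against 107, 128 and 129.8 CPM. All 3 asGM1-positive libraries of Panc02 tumours lay below the asGM1-negative ones, while in Flt3L Panc02 tumours replicate 1 of the asGM1-negative cells was the lowest of the 6. The mean gate effect was a log2 fold change of -0.46 ± 0.15 (SE) that was not called (edgeR adjusted p = 0.0948). It was called without replicate 1 of asGM1-negative Flt3L Panc02 cells (0.0231), and with tumour type and replicate number as a block (0.0265). DESeq2 and limma-voom called it too.

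Cd244a, the gene of 2B4, was higher in asGM1-positive cells of both tumour types. In Panc02 tumours it stood at 108, 113 and 117 CPM in negative-gate replicates and 171, 183 and 192 CPM in positive-gate ones, a log2 fold change of 0.69 ± 0.12 (SE, edgeR adjusted p = 0.0174). In Flt3L Panc02 tumours it stood at 97.9, 76.3 and 72.4 CPM against 168, 169 and 147 CPM, a log2 fold change of 0.97 ± 0.12 (edgeR adjusted p = 0.000807). Scaled by the summed T cell genes it was 0.57 and still called (0.029). The lowest of the 6 asGM1-positive libraries, at 147 CPM, lay above the highest of the 6 asGM1-negative ones, at 117 CPM. Cd244a was the 1 member of 8 with such a gap, found in 2.36% of all tested genes. The Panc02 call ended in 5 of the 6 fits made without 1 library, those omitting asGM1-negative replicates 1, 2 and 3 (edgeR adjusted p = 0.0891, 0.0795 and 0.0597) and asGM1-positive replicates 2 and 3 (0.0785 and 0.0606). The log2 fold change stayed between 0.64 and 0.73 in those 6 fits. Among Panc02 libraries of the same number the log2 ratio of the positive to the negative gate was 0.66, 0.69 and 0.71 for Cd244a, and -1.21, -1.30 and -1.52 for Slamf6.

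2B4 is also a receptor of NK cells, and 8 NK cell genes were followed beside it. Their summed level was 136 to 208 CPM in negative-gate and 183 to 309 CPM in positive-gate libraries of Panc02 tumours, with 0 called by edgeR, 1 at an unadjusted p under 0.05 (9.99% of all genes), and 1 each by DESeq2 and limma-voom (2.92% and 4.07% of all genes). With Flt3L expressed in the tumour, the sum ran the other way, at 231 to 309 CPM and 142 to 194 CPM. There 1 gene was called higher and 1 lower (2.77% and 5.83% of all genes). At an unadjusted p under 0.05 there were 3 (25.4% of all genes), and DESeq2 and limma-voom called 2 each (15.3% and 13.7% of all genes). The median log2 fold change of the 8 genes was 0.52 in Panc02 and 0.04 in Flt3L Panc02 tumours, so in the latter the sum fell and the median did not. Ncr1 was at most at 1.25 CPM throughout. The part of NK cells in the Cd244a levels was not tested. In the annotation used here Cd244a and Ly9 overlap on opposite strands, but share 0 exonic bases, and the sources used here do not say whether the counting used strand.

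**Figure D2:**
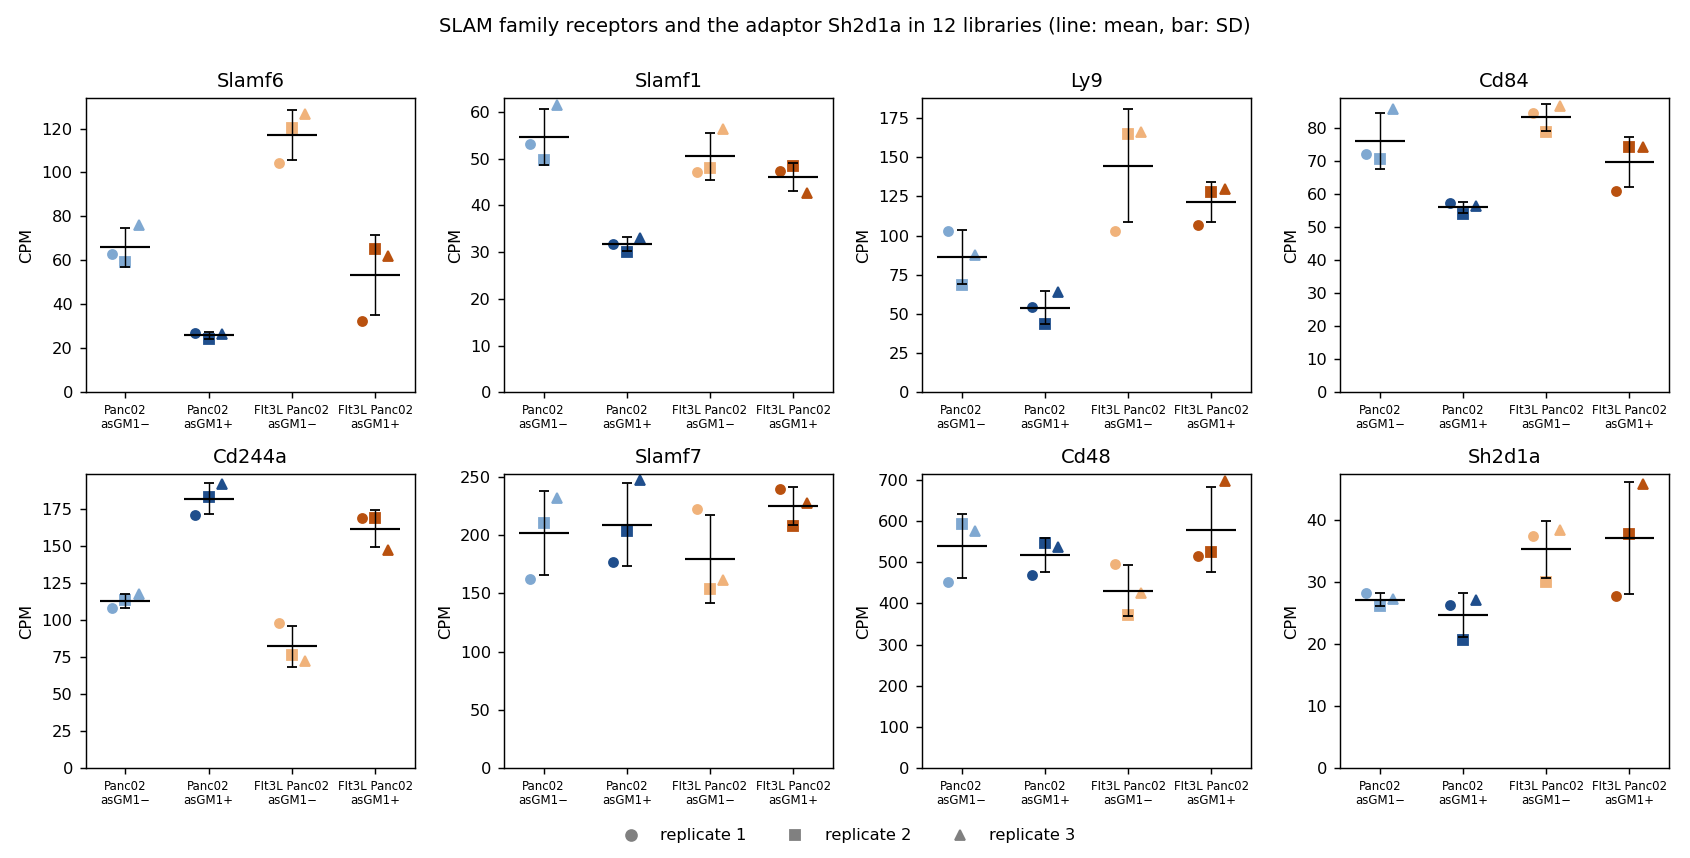
CPM of the 8 genes in each of the 12 libraries, by group, with replicate numbers as symbols, the mean as a line and the SD as a bar, and each vertical axis starting at 0. Slamf6 was lower and Cd244a higher in asGM1-positive cells of both tumour types, without overlap between the gates.

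Slamf7 and Cd48 encode a further self-binding receptor and the ligand of 2B4, and neither was called between the gates. Slamf7 stood at 162, 211 and 232 CPM in negative-gate replicates and 176, 203 and 247 CPM in positive-gate ones of Panc02 tumours, a log2 fold change of 0.05 with a 95% interval from -0.33 to 0.43. Among Flt3L Panc02 libraries it stood at 223, 154 and 162 CPM against 239, 207 and 228 CPM, a log2 fold change of 0.33 with an interval from -0.06 to 0.71. The Slamf7 libraries of the gates overlapped in both tumour types.

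Cd48 stood at 452, 593 and 575 CPM in negative-gate replicates and 469, 545 and 537 CPM in positive-gate ones of Panc02 tumours, a log2 fold change of -0.06 with an interval from -0.40 to 0.28. In Flt3L Panc02 tumours it stood at 495, 371 and 425 CPM against 515, 525 and 697 CPM. Those gates were apart, although the log2 fold change of 0.43 ± 0.15 (SE) was not called (edgeR adjusted p = 0.112) and was 0.0013 when libraries were scaled by the summed T cell genes (0.997).

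Sh2d1a, the gene of the adaptor SAP, stood at 28.2, 26.1 and 27.3 CPM in negative-gate replicates and 26.3, 20.7 and 27.1 CPM in positive-gate ones of Panc02 tumours. With Flt3L expressed in the tumour, it stood at 37.5, 30 and 38.5 CPM against 27.8, 37.8 and 45.8 CPM. The gates overlapped in both, with log2 fold changes of -0.14 (95% interval -0.53 to 0.25) and 0.07 (-0.32 to 0.46), so neither difference was larger than the spread between libraries.

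In Panc02 tumours 3 of the 8 members were called between the gates, against 0.892% of all tested genes: 1 was higher (background 0.049%) and 2 were lower (0.843%). Without both Panc02 libraries numbered 1, which held the highest macrophage and monocyte sums of their groups (1289 and 3274 CPM over 14 genes), 0 were called (edgeR adjusted p = 0.0635 for Slamf1, 0.0879 for Slamf6 and 0.134 for Cd244a), with log2 fold changes of -0.81, -1.42 and 0.70. The 3 libraries of each gate did not overlap for 5 members, against 17.6% of genes. Among Flt3L Panc02 libraries 2 of 8 were called, against 8.59%, with 1 higher (2.77%) and 1 lower (5.83%), and 4 did not overlap, against 28.7%. Averaged over the tumour types 4 of 8 were called, against 6.19%: Cd244a was higher (1.68%), by a log2 fold change of 0.83 ± 0.08 (SE), and Slamf6, Slamf1 and Cd84 were lower (4.51%). Slamf7 (0.19, edgeR adjusted p = 0.432), Cd48 (0.18, 0.383) and Sh2d1a (-0.03, 0.922) were not called in that mean. The median log2 fold change of the 8 members was -0.29 in Panc02 and -0.03 in Flt3L Panc02 tumours, beside 0.02 and -0.01 over all tested genes.

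Transcripts of other cells moved with the gates. Summed over 15 plasmacytoid dendritic cell genes, levels were 1101 to 1183 CPM in negative-gate and 851 to 928 CPM in positive-gate libraries of Panc02 tumours, and 1873 to 2055 CPM and 835 to 959 CPM in Flt3L Panc02 tumours. Of these 15 genes, 9 and 11 were called lower in asGM1-positive cells, and 0 higher. Their median log2 fold change was -4.36 in Panc02 and -4.83 in Flt3L Panc02 tumours, so the sums fell less than most of these genes. The regulatory T cell gene Foxp3 stood at 48.5 to 72.7 CPM in negative-gate and 5.29 to 11.6 CPM in positive-gate libraries of Panc02 tumours, and at 18.2 to 35 CPM and 9.28 to 11.1 CPM in Flt3L Panc02 tumours. The summed level of 7 CD4 and regulatory T cell genes was 366 to 538 CPM and 244 to 374 CPM in Panc02 tumours, and 345 to 487 CPM and 377 to 624 CPM in Flt3L Panc02 tumours. The helper T cell gene Cd4 alone stood at 6.06 to 8.37 CPM and 2.78 to 3.25 CPM in Panc02 tumours, and at 23 to 32.2 CPM and 4.43 to 4.98 CPM in Flt3L Panc02 tumours. Of the 7 genes 3 were called lower in each tumour type. In negative-gate libraries Foxp3 was lower and Cd4 higher in Flt3L Panc02 than in Panc02 tumours. The cells that carried these transcripts were not identified. Other lists were also lower in the positive gate of Flt3L Panc02 tumours: B and plasma cell sums were 681 to 799 CPM and 330 to 490 CPM (3 of 8 tested genes called lower), gamma delta and innate-like T cell sums 155 to 251 CPM and 100.3 to 119 CPM (6 of 9), and conventional dendritic cell sums 823 to 988 CPM and 604 to 793 CPM (6 of 11). In Panc02 tumours these 3 lists had 1, 3 and 1 genes called lower and 0 higher, but their sums did not all fall. B and plasma cell sums overlapped there, at 363 to 454 CPM and 220 to 381 CPM. Conventional dendritic cell sums overlapped too, at 753 to 1079 CPM and 717 to 2272 CPM. Gamma delta and innate-like T cell sums were higher in the positive gate, at 103 to 128 CPM and 132 to 154 CPM. Macrophage and monocyte sums were higher in the positive gate of Flt3L Panc02 tumours, at 384 to 617 CPM and 689 to 944 CPM. Of these 14 genes 0 were called higher and 1 lower there. In Panc02 tumours those sums overlapped, at 781 to 1289 CPM and 891 to 3274 CPM. Averaged over the tumour types 4 of the 14 were called higher, against 1.68% of all genes, and 0 lower. In that mean 1 of 6 neutrophil and 3 of 6 platelet and erythroid genes were also called higher, and 0 lower. T cell sums went up with the positive gate of Flt3L Panc02 tumours, from 8007 to 9504 CPM to 10649 to 13511 CPM, with 2 of 9 genes called higher. With libraries scaled by that sum, the gate effects there were -0.69 for Ly9, -0.08 for Slamf7 and -0.36 for Sh2d1a, and none of these 3 was called. The part of other cell types in the lower Slamf6, Slamf1 and Cd84 levels and in the higher Cd244a level was not tested.

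**Figure D3:**
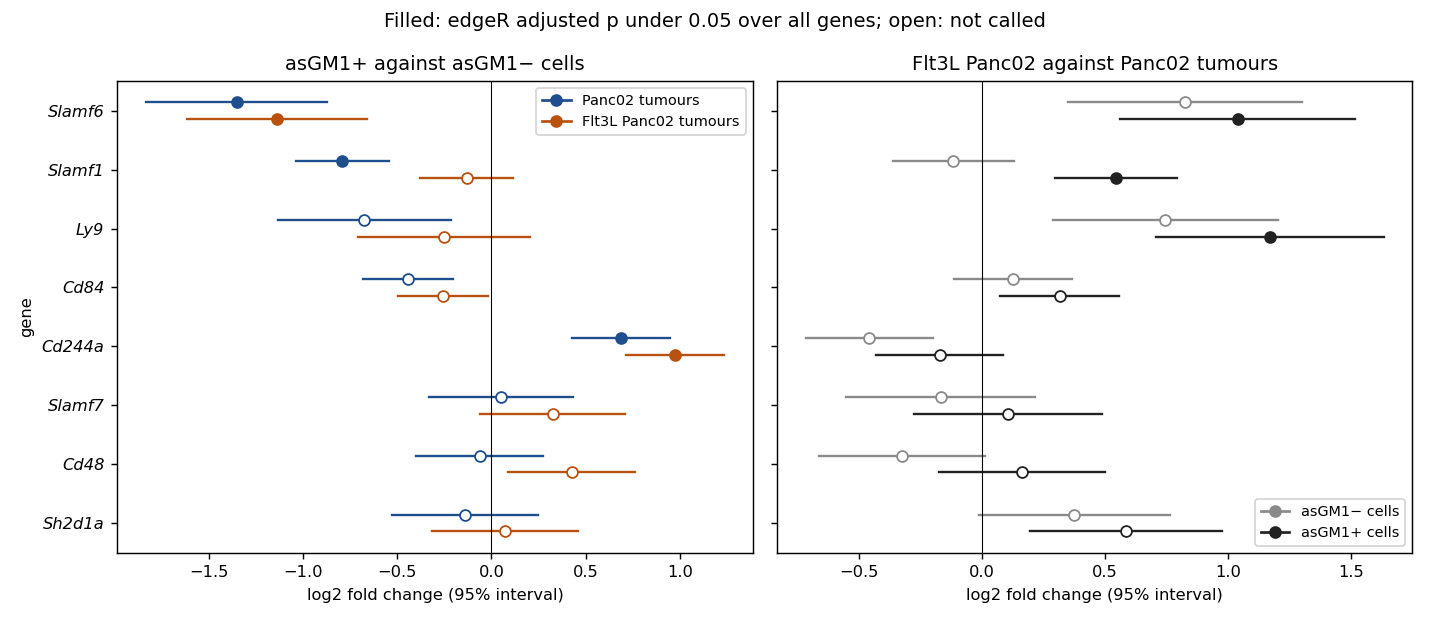
Log2 fold changes of the 8 genes with 95% intervals, for asGM1-positive against asGM1-negative cells (left) and for Flt3L Panc02 against Panc02 tumours (right). Filled points were called by edgeR (adjusted p under 0.05 over all genes), among them Slamf6 and Cd244a in both gate comparisons.

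Tumour types were compared within each gate. Among asGM1-positive cells, 3 of 8 members were called, against 6.25% of all tested genes, and all 3 were higher in Flt3L Panc02 tumours (background 2.05% higher and 4.2% lower). Ly9 rose from 43.7 to 64.3 CPM in Panc02 to 107 to 129.8 CPM in Flt3L Panc02 libraries, a log2 fold change of 1.17 ± 0.21 (SE, edgeR adjusted p = 0.0124). Slamf6 rose from 24 to 27.2 CPM to 32.2 to 65.3 CPM, by 1.04 ± 0.22 (0.0211), and Slamf1 from 30.1 to 33.1 CPM to 42.8 to 48.4 CPM, by 0.54 ± 0.11 (0.0204). Sh2d1a, at 20.7 to 27.1 CPM and 27.8 to 45.8 CPM, and Cd84, at 54.1 to 57.4 CPM and 60.9 to 74.1 CPM, did not overlap either and were not called (edgeR adjusted p = 0.0716 and 0.106). Cd244a went the other way, at 171 to 192 CPM in Panc02 and 147 to 169 CPM in Flt3L Panc02 libraries, without overlap and not called (-0.17 ± 0.12, edgeR adjusted p = 0.402). Slamf7 (0.11, 0.764) and Cd48 (0.16, 0.561) overlapped and were not called. The groups did not overlap for 6 members, against 30.7% of genes.

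Each of these 3 calls ended when single libraries were left out, while the log2 fold changes stayed at 1.04 to 1.33 for Ly9, 0.87 to 1.299 for Slamf6 and 0.51 to 0.62 for Slamf1 over the 6 such fits. Without asGM1-positive replicate 2 of Panc02 tumours the edgeR adjusted p was 0.0573 for Ly9, 0.091 for Slamf6 and 0.0923 for Slamf1, and without replicate 2 of Flt3L Panc02 tumours it was 0.0535, 0.088 and 0.0837. Without replicate 3 of Flt3L Panc02 tumours it was 0.0515 for Ly9 and 0.0837 for Slamf6, and without replicate 1 of Panc02 tumours 0.0668 for Slamf6 and 0.0757 for Slamf1. Sh2d1a was called without replicate 1 of Flt3L Panc02 tumours (0.0263). A fit to the 6 compared libraries alone called 0 of the 8 members and 1 gene in all, while DESeq2 and limma-voom each called 5 members on all 12 libraries, beside 14.4% and 15.3% of all genes.

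T cell transcripts moved in the same direction in this gate. The summed level of 9 T cell genes was 7858 to 9313 CPM in Panc02 and 10649 to 13511 CPM in Flt3L Panc02 libraries, and 4 of the 9 were called higher. With the libraries scaled by this sum (an alternative added after seeing the data), the log2 fold changes were 0.66 for Ly9, 0.50 for Slamf6 and 0.04 for Slamf1, and none of these 3 was called (edgeR adjusted p = 0.0605, 0.0826 and 0.844). Myeloid transcripts were lower in the same comparison. Macrophage and monocyte sums were 891 to 3274 CPM in Panc02 and 689 to 944 CPM in Flt3L Panc02 libraries (4 of 14 genes called lower), and conventional dendritic cell sums were 717 to 2272 CPM and 604 to 793 CPM (3 of 11). Their part in the rise of Ly9, Slamf6 and Slamf1 was not tested. On the T cell scale the median of all genes fell from -0.03 to -0.54, Cd48 turned from 0.16 to -0.36 (0.0248) and Cd244a stood at -0.67 (0.013).

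In asGM1-negative cells 0 of 8 members were called by edgeR between tumour types, against 3.7% of all tested genes (1.86% higher and 1.84% lower). At an unadjusted p under 0.05 there were 3 (20.3% of all genes), and DESeq2 called 3 and limma-voom 4, beside 10.5% and 17.3% of all genes. Slamf6 stood at 59.1 to 76.1 CPM in Panc02 and 104 to 127 CPM in Flt3L Panc02 libraries, without overlap, a log2 fold change of 0.83 ± 0.22 (SE, edgeR adjusted p = 0.0582). Cd244a stood lower in Flt3L Panc02 tumours, at 72.4 to 97.9 CPM against 108 to 117 CPM, also without overlap, at -0.46 ± 0.12 (0.0553). Ly9 was at 0.75 ± 0.21 (0.0723), and its libraries overlapped. Sh2d1a did not overlap, at 26.1 to 28.2 CPM and 30 to 38.5 CPM (0.38 ± 0.18, 0.262). Slamf1 (-0.12, 0.635), Slamf7 (-0.17, 0.661), Cd48 (-0.33, 0.265) and Cd84 (0.13, 0.576) overlapped. Without replicate 1 of asGM1-negative Flt3L Panc02 cells both Cd244a (0.012) and Ly9 (0.0222) were called. The groups did not overlap for 3 members, against 26.6% of genes.

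The interaction, which compares the gate effects of both tumour types, called 0 of the 8 members by edgeR, against 0.367% of all tested genes (0.0343% above and 0.333% below 0). At an unadjusted p under 0.05 there were 2, Slamf1 and Cd48 (14.8% of all genes), and DESeq2 and limma-voom each called 1, Slamf1, beside 4.34% and 3.85% of all genes. The edgeR adjusted p of the 6 other members lay between 0.451 for Cd244a and 0.781 for Slamf6, with Ly9 at 0.529, Cd84 at 0.602, Slamf7 at 0.635 and Sh2d1a at 0.728. The estimate was above 0 for all 8 members, from 0.19 for Cd84 to 0.66 for Slamf1, beside 51.6% of all genes below 0. With libraries scaled by the T cell sum only Slamf1 kept an estimate above 0, at 0.12, and the median of all genes moved from -0.02 to -0.56.

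**Figure D4:**
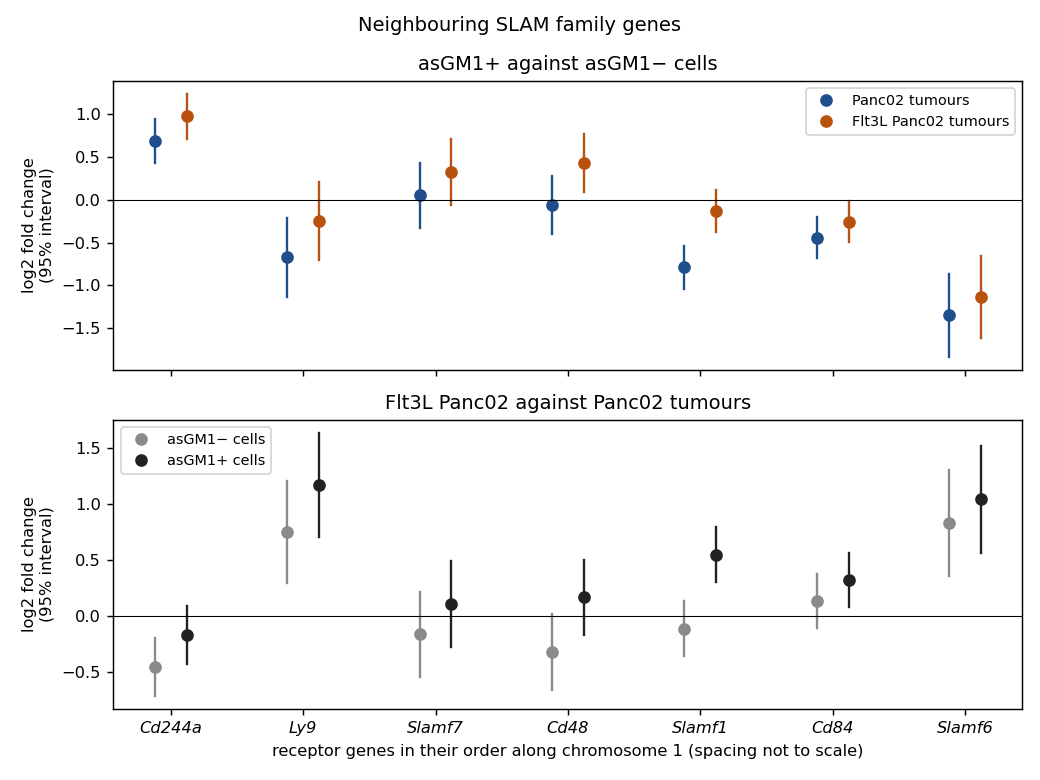
Log2 fold changes with 95% intervals of the 7 receptor genes in their order along chromosome 1 (spacing not to scale), for the gate comparison (top) and the tumour comparison (bottom). The end members of the row, Cd244a and Slamf6, had gate effects of opposite sign in both tumour types.

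Seen along the chromosome, neighbours did not move as a block between the gates. Cd244a was called higher and its neighbour Ly9 had estimates below 0, at -0.67 and -0.25 in Panc02 and Flt3L Panc02 tumours. Slamf7 and Cd48 in the middle were not called, and the 3 genes from Slamf1 to Slamf6 had estimates below 0 in both tumour types. Between tumour types Cd244a had estimates below 0 in both gates, and Ly9 and Slamf6 above 0 in both.

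Signalling partners and relatives of the family were followed as lists. Of 12 adaptor and kinase genes, 11 passed the filter. Between the gates edgeR called 0 of them in either tumour type, beside 0.892% of all genes in Panc02 and 8.59% in Flt3L Panc02 tumours. At an unadjusted p under 0.05 there were 2 in each, beside 9.99% of all genes in Panc02 and 25.4% in Flt3L Panc02 tumours. DESeq2 called 0 in each, beside 2.92% and 15.3% of all genes. The limma-voom fit called 0 in Panc02 and 1 in Flt3L Panc02 tumours, beside 4.07% and 13.7% of all genes. Fyn, the kinase that SAP brings to the receptors, stood at 368 ± 29.0 CPM (mean ± SD over 3 libraries) in the negative gate and 323 ± 37.7 CPM in the positive gate of Panc02 tumours, and at 471 ± 57.9 and 426 ± 41.4 CPM in Flt3L Panc02 tumours. Its log2 fold changes between the gates were -0.19 and -0.14 (edgeR adjusted p = 0.71 and 0.512). The SAP relative Sh2d1b1, an adaptor of NK and myeloid cells also called EAT-2, lay between 1.28 and 3.83 CPM, and Sh2d1b2 was at 0 in all 12 libraries.

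Of 7 inhibitory partners (phosphatases, the kinase Csk and related regulators) 0 were called by edgeR between the gates in either tumour type. Over all genes these shares were 0.892% in Panc02 and 8.59% in Flt3L Panc02 tumours. In Panc02 tumours 0 had an unadjusted p under 0.05 (9.99% of all genes), and DESeq2 and limma-voom called 0 (2.92% and 4.07% of all genes). In Flt3L Panc02 tumours 2 of 7 had such a p, near the 25.4% of all genes. There DESeq2 called 2 and limma-voom 1, beside 15.3% and 13.7% of all genes. Between tumour types, Ptpn11, which encodes the phosphatase SHP-2, was called higher in Flt3L Panc02 tumours in both gates, by log2 fold changes of 0.54 ± 0.10 (SE) for the negative gate and 0.46 ± 0.10 for the positive one (edgeR adjusted p = 0.0204 and 0.0272). In asGM1-positive cells Csk, a kinase that restrains Lck and Fyn, rose by 0.81 ± 0.16 (0.0174) and the kinase gene Lck by 0.53 ± 0.12 (0.0274). The T cell adhesion gene Cd2, which also stands in the T cell list, rose there by 0.63 ± 0.15 (0.0369). With libraries scaled by the T cell sum none of these calls held: Ptpn11 stood at 0.58 for the negative gate and at -0.04 for the positive one (edgeR adjusted p = 0.117 and 0.854). On that scale asGM1-positive cells gave 0.28 for Csk, 0.01 for Lck and 0.11 for Cd2 (edgeR adjusted p = 0.21, 0.907 and 0.338).

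**Figure D5:**
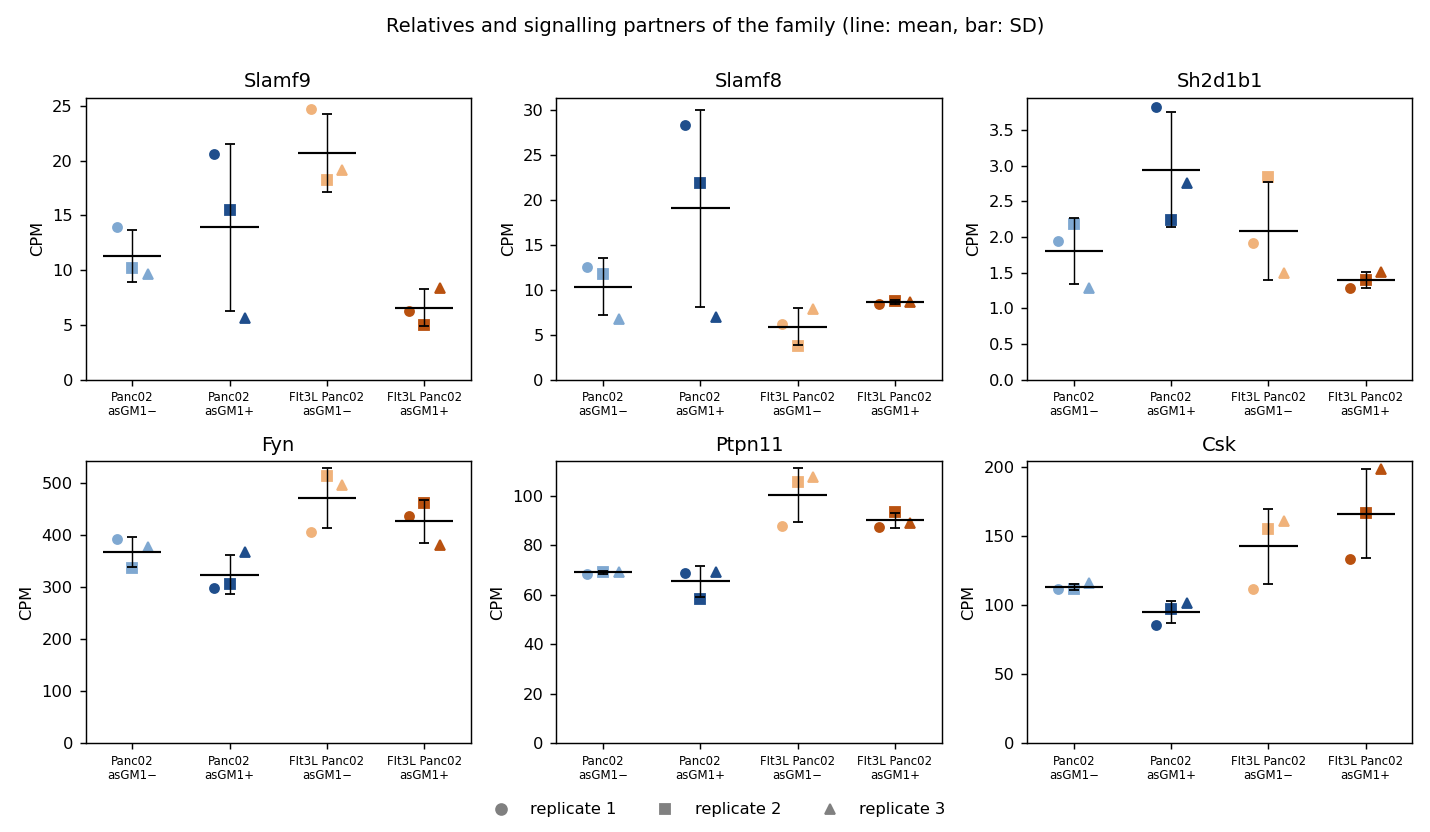
CPM of 2 relatives of the family (Slamf9 and Slamf8) and of 4 signalling partners (Sh2d1b1, Fyn, Ptpn11 and Csk) in each of the 12 libraries, by group, with the mean as a line and the SD as a bar. Slamf9 was highest in asGM1-negative cells of Flt3L Panc02 tumours, at 18.3 to 24.8 CPM.

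Slamf9 and Slamf8 are relatives expressed mainly outside the T cell lineage, Slamf9 in plasmacytoid dendritic cells and macrophages and Slamf8 in macrophages. Slamf9 stood at 24.8, 18.3 and 19.1 CPM in negative-gate replicates and 6.29, 5.03 and 8.38 CPM in positive-gate ones of Flt3L Panc02 tumours, a log2 fold change of -1.66 ± 0.38 (SE, edgeR adjusted p = 0.0217). In Panc02 tumours it stood at 14, 10.2 and 9.68 CPM against 20.6, 15.5 and 5.63 CPM, overlapped and was not called. Slamf8 stood at 28.4, 21.9 and 6.97 CPM in asGM1-positive replicates 1, 2 and 3 of Panc02 tumours, where 14 summed macrophage and monocyte genes ranged from 891 to 3274 CPM, and at most at 12.6 CPM in the other libraries. Slamf8 was not called between the gates (edgeR adjusted p = 0.533 and 0.47). The part of those cells in the Slamf9 and Slamf8 levels was not tested.

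By the root mean square difference of centred log2(CPM + 1) over the 12 libraries, among 8296 genes averaging 10 CPM or more, the genes nearest to Slamf6 were Cd40lg (0.21), Ccr7 (0.25) and Btla (0.27). Cd40lg, which also stands in the CD4 and regulatory T cell list, encodes the CD40 ligand, Ccr7 the receptor for lymph node entry and Btla an inhibitory receptor. Ccr7 averaged 302 and 83.8 CPM in asGM1-negative and asGM1-positive cells of Panc02 tumours and 517 and 209 CPM in Flt3L Panc02 tumours. Nearest to Slamf1 were the chemokine receptor gene Ccr8 (0.13), Tbc1d17 (0.14) and Il27ra (0.14), and nearest to Cd244a were Glmn (0.14), the adaptor gene Lat2 (0.16) and the mitotic gene Ube2c (0.16). Ly9 was nearest to Gtf2i (0.19), the chemokine receptor gene Cxcr3 (0.19) and Mideas (0.22). Cd84 lay near Kctd2, Ubac2 and H2-Q7, Slamf7 near Cenpa, Isy1 and Brcc3, Cd48 near Clic1, Dynlrb1 and Mrps6, and Sh2d1a near Il10rb, Thap3 and Pdrg1. Each member's own root mean square about its mean ran from 0.23 for Cd48 to 0.80 for Slamf6, so a small difference says little for the flatter members.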

How the data were processed

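Bulk RNA-seq of sorted CD8+ T cells gave 12 libraries in 4 groups of 3, grouped by their titles. The values are estimated counts per gene that the authors deposited as whole numbers. Reads were processed with HISAT2 and StringTie on mm39, per the submitters' processing notes. The sources used here give no versions, annotation or use of strand. Per the labels' protocols RNA was taken with TRIzol and a TruSeq mRNA kit, and libraries were made with a SMARTer low input kit. Small values peaked at multiples of about 2.71 counts (2.67 to 2.75), so the deposited counts exceed the number of fragments, and low genes are less precise than their counts imply. The counts were used as deposited.

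Counts were scaled by TMM, filtered with filterByExpr and fitted in edgeR 4.0.16 (R 4.3.3) as 1 quasi-likelihood model of 4 group means, which pools the spread of all 12 libraries. P-values were adjusted by Benjamini-Hochberg over 20411 genes. Intervals are 95% from the unshrunk log2 fold change. The fit was tested on simulated data. Alternatives were DESeq2 1.42.0, limma 3.58.1 voom with quality weights, other scalings and filters, the compared libraries only, replicate blocks and leaving out libraries. Scaling by the T cell list and dividing counts by the fragment step were chosen after seeing the data.

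Same-numbered Panc02 libraries of both gates deviated together from their group means (correlations 0.448, 0.307 and 0.391), each most with its own number, so these numbers were taken to pair the samples there. The column names of the counts hold tumour type, number and gate in both tumour types. The main p-values come from the fit without a replicate block and leave this pairing out. All 8 members were named in each comparison, listed partners where called, Slamf8, Slamf9 and Fyn always, and for likeness the 3 nearest genes averaging 10 CPM or more, leaving out members, unnamed gene models, receptor segments and ribosomal and mitochondrial genes. Sh2d1b1, Sh2d1b2, Ccr7's levels and the single marker genes were chosen after their values were seen. Members and lists were chosen with earlier results of these data known. Cd244b was not found under that symbol. Exon lengths and names come from GENCODE M21, and promoters and gene order from RefSeq (GRCm38.p6).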

Additional observations from a re-analysis of the deposited data

How the results depend on the processing

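Slamf6 and Cd244a were called in Flt3L Panc02 tumours, and Slamf1, Slamf6 and Cd244a in the mean of both tumour types, under every alternative run. For asGM1-positive against asGM1-negative cells of Panc02 tumours, limma-voom called 5 members, the fit without both Panc02 libraries numbered 1 called 0, and leaving out 1 library gave 1 to 3. In Flt3L Panc02 tumours scaling by the T cell list called 4, beside 3081 of all 20411 genes (75 higher and 3006 lower). Leaving out 1 library gave 2 each time. In the mean of both, DESeq2 and limma-voom called 5 each, beside 2357 and 2528 of all genes, and leaving out 1 library gave 3 to 5. Between tumour types in asGM1-negative cells, 0 members were called by edgeR, 2 with the filter of 5 CPM in 3 libraries, 3 by DESeq2, 4 by limma-voom, 1 with the compared libraries only, 2 with counts divided by the fragment step, and 0 to 2 without 1 library. In asGM1-positive cells DESeq2 and limma-voom called 5 each, the compared libraries only 0, the fit without both Panc02 libraries numbered 1 called 1, and leaving out 1 library gave 0 to 4. For the interaction DESeq2 and limma-voom called 1 each. The causes were not tested. Of 48 results of single members, 15 changed sign in some run (25 of 928 runs), 1 of them while called: Cd48 between tumour types in asGM1-positive cells, at -0.36 when scaled by the T cell list. That scaling moved the share of calls that were higher from 32.2% to 2.43% between the gates in Flt3L Panc02 tumours, from 27.2% to 8.01% in their mean, and from 32.8% to 2.01% between tumour types in asGM1-positive cells. Counts over all genes ran from 94 to 831 (182 as reported) and 768 to 3197 (1754) between the gates in Panc02 and Flt3L Panc02 tumours, 809 to 2528 (1263) in their mean, 94 to 3536 (756) and 1 to 6126 (1276) between tumour types in asGM1-negative and asGM1-positive cells, and 1 to 882 (75) for the interaction.

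With the replicate number as a block, 3 members were called between the gates in Panc02 tumours, 2 in Flt3L Panc02 tumours, 4 in their mean, 0 and 3 between tumour types in asGM1-negative and asGM1-positive cells, and 0 in the interaction. Over all genes, in the same order, that fit called 197, 1784, 1238, 736, 1490 and 135. With tumour type by number as the block, the gate counts were 3, 2 and 5 and the interaction 0, and the 1 changed call was Ly9 in the mean (-0.45, edgeR adjusted p = 0.0265). Over all genes the gate counts of that fit were 248, 2104 and 1602 and the interaction 204. The numbers were not taken to pair other samples: same-number correlations were 0.0968, 0.403 and -0.00178 between the Flt3L Panc02 gates, -0.318, -0.175 and -0.147 between tumour types in asGM1-negative cells, and 0.0279, -0.034 and 0.0697 in asGM1-positive cells.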
